A study of Rattus norvegicus with 4 samples.

Results

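Glycolysis splits glucose to pyruvate for quick energy, and glycogen is the stored glucose that heart and skeletal muscle draw on. Many steps are carried out by several isoforms from separate genes, of which 1 is typical of heart or striated muscle and others serve most tissues, liver or brain. The neonatal heart relies more on glycolysis than the adult heart, which turns mainly to fatty acids. The 35 enzymes and regulators described here were chosen by gene symbol, and all 35 were found among the 19868 named genes of the array. They were placed in 3 classes from textbook knowledge, namely 11 striated-muscle or heart isoforms, 14 ubiquitous or other-tissue isoforms, and 10 genes that are the main or only form of their step.

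The cells were primary ventricular cardiomyocytes of Sprague-Dawley rats on postnatal day 3. They were kept for 48 h in 5% horse serum with 20 µM cytosine arabinoside, an inhibitor of DNA synthesis, and then infected for 48 h with adenovirus carrying Smyd2, a lysine methyltransferase, or LacZ, which encodes the control protein beta-galactosidase. Each of the 2 groups had 2 biological replicates, 1 single-colour array each. The labels carry the prefix siScr on all 4 samples without explaining it, so whether both groups also received a control small interfering RNA is not settled. The virus reaches whatever cells the culture holds, and both groups carry an adenovirus.

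Values are log2 intensities as deposited, differences are Smyd2 minus control, and errors are SD over 2 arrays or the standard error (SE) of limma's fit. A level under 4.70, the median of all features, is called dim, and one above 15.9 is at the top of the scale. The control arrays had a median absolute difference of 0.3753 from each other and the Smyd2 arrays one of 0.2548. Precision is limited by there being 2 arrays a group. The single Smyd2 feature read 8.72 and 8.86 in the control group against 8.92 and 8.42 in the Smyd2 group, a difference of −0.12 (SE 0.28, limma adjusted p = 0.913). The groups overlapped, so this feature did not show the overexpression. Its probe position was not known here, and a probe that the viral construct does not cover checks nothing. All directions below rest on the labels.

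The muscle glycogen phosphorylase Pygm, the muscle mutase Pgam2, the muscle enolase Eno3 and the heart lactate dehydrogenase subunit Ldhb read lower on the Smyd2 arrays, while the differences of the ubiquitous forms lay on both sides of 0. The 11 striated-muscle or heart isoforms had a median log2 difference of −0.78, with 10 of them below 0 and 1 above. Without overlap of the groups 7 were lower and 1 higher, against 20.8% and 21.9% of all genes. The 3 that overlapped were Hk2, Phka1 and Phkg1, and Phka1 and Phkg1 were dim in both groups. For the 14 ubiquitous or other-tissue isoforms the median was −0.10, with 8 below 0 and 6 above. Of these 4 were lower and 4 higher without overlap. The 10 main or only forms had a median of −0.27, and the 7 that were lower included 3 of the glycogen pathway. Over all genes 48.8% were lower, with a median of 0.01.

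No member passed limma's test at an adjusted p under 0.05, and neither did any other gene (0% of those tested), while 2363 genes (11.9%) had an unadjusted p under 0.05. At an unadjusted p under 0.05, 10 members were lower, against 6.39% of all genes, and 2 were higher, against 5.51%. When limma let its prior follow intensity and made it robust, 8 members passed at an adjusted p under 0.05, all lower, against 1.45% of all genes lower and 0.478% higher. Those 8 were Ldhb, Pygm, Gyg1, Pfkp, Pgam2, Eno3, Ppp1r3a and Pgm1, and with the trend alone 3 passed, Ldhb, Pfkp and Gyg1. The 2 groups did not overlap for 21 members, against 42.7% of all genes. Of these 16 were lower, against 20.8%, and 5 higher, against 21.9%. The median over all 35 members was −0.20, and it was −0.36 without control replicate 1 and −0.32 without Smyd2 replicate 2. The muscle isoform median stayed between −0.92 and −0.76 when each array was left out in turn. That of the ubiquitous isoforms was −0.18 without control replicate 1 and −0.00 without Smyd2 replicate 2.

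**Figure D1:**
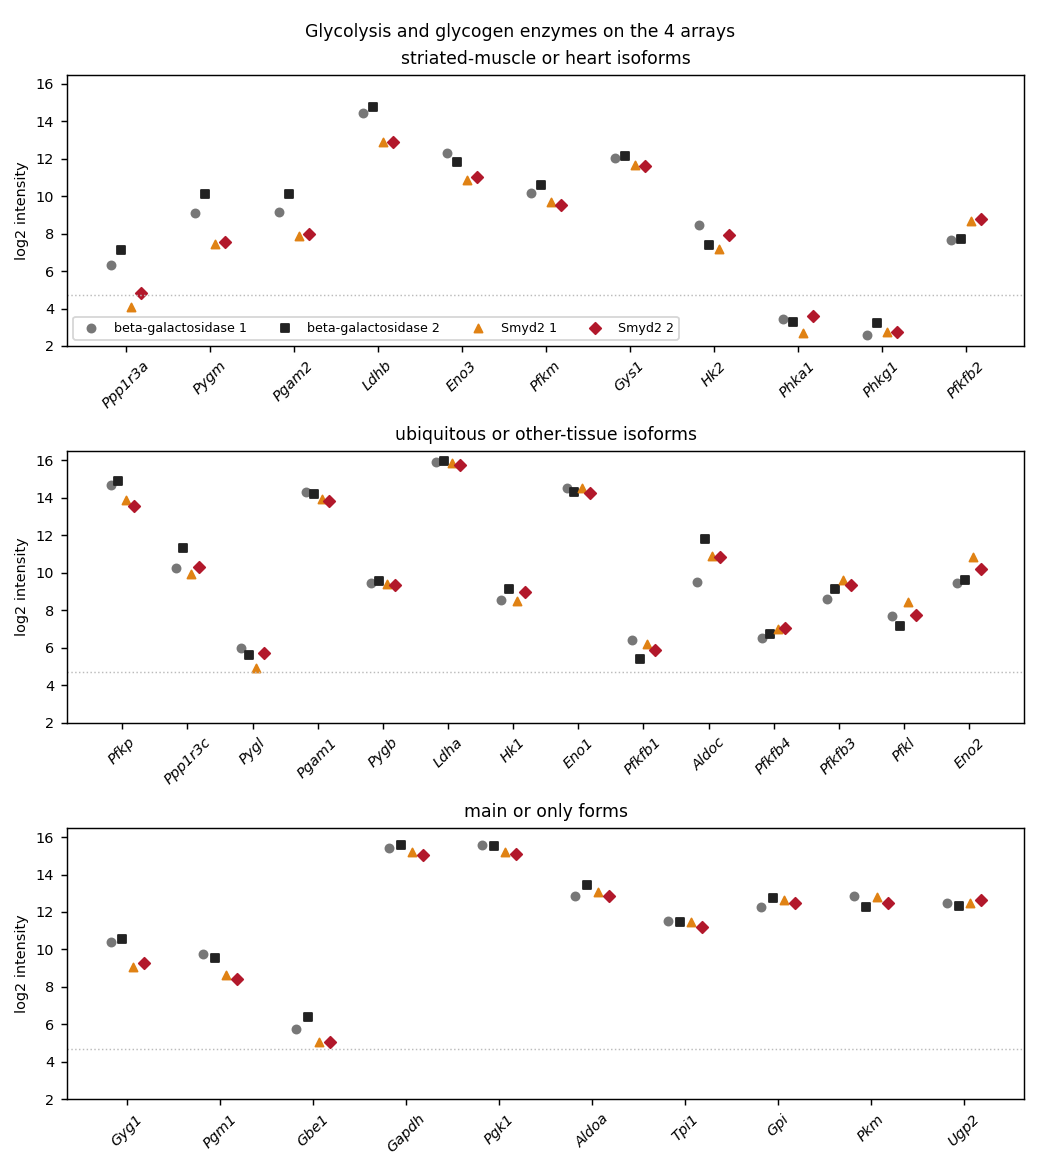
Log2 intensity of each of the 35 genes on each of the 4 arrays, in 3 panels by class and ordered by difference within a panel. Grey and black points are the 2 control arrays, orange and red points the 2 Smyd2 arrays, and the dotted line marks the median of all features, 4.70. Among the striated-muscle or heart isoforms, Ppp1r3a, Pygm, Pgam2, Ldhb, Eno3, Pfkm and Gys1 have both Smyd2 points under both control points. The same holds for 4 of the 14 ubiquitous or other-tissue isoforms and 5 of the 10 main or only forms. Together these are 16 of the 35 genes, against 20.8% of all genes.

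At the entry of glycolysis, hexokinase traps glucose as its phosphate. Hk1, the form found in most tissues, read 8.54 and 9.14 in the control group against 8.47 and 8.95 in the Smyd2 group, with no separation. Hk2, the insulin-responsive form of heart and muscle, read 8.48 and 7.40 against 7.18 and 7.94, a difference of −0.38 (SE 0.47). These groups overlapped too, and without control replicate 1 the difference of Hk2 was 0.16. The other feature of Hk2, which is annotated to a different transcript record, read 6.06 and 4.46 against 3.83 and 3.63, so it was dim on the Smyd2 arrays and 1.53 lower there on the log2 scale. Gpi, which turns glucose phosphate into fructose phosphate, read 12.24 and 12.75 against 12.66 and 12.50, a difference of 0.09 (SE 0.28).

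Phosphofructokinase carries out the committed step, and its 3 forms did not share a direction. The muscle form Pfkm read 10.17 and 10.62 in the control group against 9.69 and 9.54 in the Smyd2 group, a 1.72-fold lower level (difference −0.78, SE 0.27, limma adjusted p = 0.376). Pfkp, named for platelets, read 14.67 and 14.92 against 13.89 and 13.57, a 2.09-fold lower level (−1.06, SE 0.26, adjusted p = 0.27). Pfkl, the liver form, read 7.70 and 7.17 against 8.42 and 7.77, a 1.58-fold higher level (0.66, SE 0.35, adjusted p = 0.545). The groups did not overlap for any of the 3. Pfkp thus had the lowest difference of the ubiquitous class, and in point estimate it was further below 0 than the muscle form.

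The bifunctional PFKFB enzymes make and remove the sugar phosphate that activates phosphofructokinase, and all 4 were higher in point estimate. Pfkfb2, the heart form, read 7.64 and 7.73 in the control group against 8.66 and 8.78 in the Smyd2 group, a 2.05-fold higher level (1.04, SE 0.23, limma adjusted p = 0.24). Of the 11 genes classed as muscle or heart isoforms, it alone had a difference above 0. Its 3 other features read between 2.76 and 4.66 on all arrays, below the median of the array, and differed by −0.53, 0.11 and −0.49, so the features of Pfkfb2 did not share a direction. With the mean of all its features the difference of Pfkfb2 was 0.03. Pfkfb3, the inducible form of proliferating and hypoxic cells, read 8.58 and 9.15 against 9.63 and 9.36 (0.63, SE 0.30, adjusted p = 0.504). Pfkfb4, first described in testis, read 6.53 and 6.74 against 7.01 and 7.07. On the other features of Pfkfb3 and Pfkfb4 the groups overlapped. These differed by 0.30 and 0.16 for Pfkfb3 and by 0.23 for Pfkfb4. Pfkfb1, the liver and muscle form, was placed here among the ubiquitous or other-tissue isoforms. It overlapped between groups, at 6.39 and 5.41 against 6.17 and 5.87, a difference of 0.12.

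**Figure D2:**
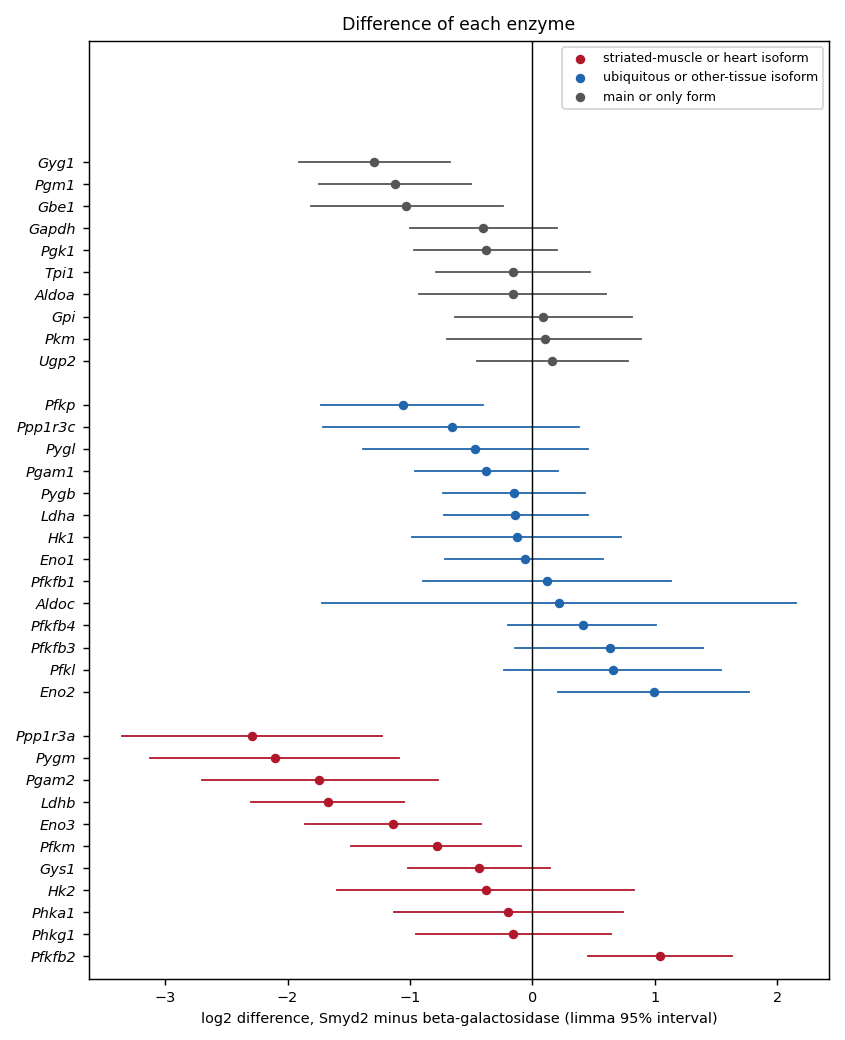
Log2 difference, Smyd2 minus control, of each of the 35 genes (points) with limma's 95% interval (lines), coloured by class. The intervals of 10 genes lie below 0 and those of Pfkfb2 and Eno2 above it; none passed adjustment over all genes.

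In the middle of the pathway the differences were small. Aldolase A (Aldoa), the main form of muscle and of most cells, read 12.84 and 13.42 in the control group against 13.09 and 12.85 in the Smyd2 group. Aldolase C (Aldoc), typical of brain, read 9.52 and 11.80 against 10.90 and 10.85. On each of its 10 features control replicate 1 was the lowest array and control replicate 2 the highest, and without control replicate 1 its difference turned from 0.22 to −0.92. Tpi1, which interconverts the triose phosphates, read 11.52 and 11.44 against 11.47 and 11.17. Gapdh, which reduces NAD and is often used as a reference gene, read 15.44 and 15.57 against 15.19 and 15.02, a 1.32-fold lower level (−0.40, SE 0.23, limma adjusted p = 0.587). All 8 features of Gapdh were lower, by 0.08 to 0.55, and Pgk1, which makes the first ATP of the pathway, differed by −0.38 (SE 0.23). For Gapdh and Pgk1 the groups did not overlap, yet limma's 95% intervals include 0 (−0.97 to 0.20 for Pgk1).

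The mutases and enolases separated by isoform. Pgam2, the muscle phosphoglycerate mutase, read 9.18 and 10.13 in the control group against 7.86 and 7.97 in the Smyd2 group, a 3.34-fold lower level (−1.74, SE 0.38, limma adjusted p = 0.236). Pgam1, the form of most tissues, read 14.29 and 14.23 against 13.95 and 13.83, a 1.30-fold lower level (−0.38, SE 0.23, adjusted p = 0.599). Both were lower on each Smyd2 array than on each control array, and the 10 features of Pgam1 ranged only from −0.40 to −0.30.

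Eno3, the muscle enolase, read 12.31 and 11.82 in the control group against 10.84 and 11.02 in the Smyd2 group, a 2.20-fold lower level (−1.14, SE 0.28, limma adjusted p = 0.272), and its 10 features lay between −1.21 and −0.96. Eno1, the ubiquitous enolase, overlapped between the groups at 14.55 and 14.32 against 14.51 and 14.24, and its 30 features lay between −0.13 and 0.16. Eno2, the neuronal enolase, went the other way. It read 9.46 and 9.59 against 10.83 and 10.20, a 1.99-fold higher level (0.99, SE 0.30, adjusted p = 0.342), and all 11 of its features were higher, by 0.70 to 1.02, with no overlap. The 3 enolases of 1 pathway step therefore read lower (Eno3), overlapping (Eno1) and higher (Eno2), each on at least 10 features. These features may hold repeated spots of few probes, which the tables do not tell apart.

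At the end of glycolysis, pyruvate kinase (Pkm) overlapped between the groups and the lactate dehydrogenases did not. Pkm read 12.85 and 12.27 in the control group against 12.82 and 12.49 in the Smyd2 group (0.10, SE 0.31). Its gene makes the M1 and M2 forms by splicing, and 21 of its 22 features differed by 0.03 to 0.34. The remaining feature, annotated to the same transcript record, was the dimmest of the 22. It read 7.12 and 7.59 against 4.90 and 5.25, a log2 difference of −2.28. Its position along the transcript was not known here, and it was singled out after its values were seen.

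Ldhb, the heart subunit of lactate dehydrogenase that favours lactate use, read 14.43 and 14.74 in the control group against 12.91 on both Smyd2 arrays, a 3.19-fold lower level (−1.67, SE 0.24, 95% interval −2.30 to −1.05, limma adjusted p = 0.161). Its 10 features agreed within −1.67 to −1.59. Ldhb had the smallest p of the 35 members. Ldha, the subunit that favours lactate production, read 15.91 and 15.96 against 15.87 and 15.74. Its 2 control values lay at the upper limit of the scale, so the difference of −0.14 may understate the true one. The other 11 features of Ldha differed by −0.46 to −0.35, without overlap.

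**Figure D3:**
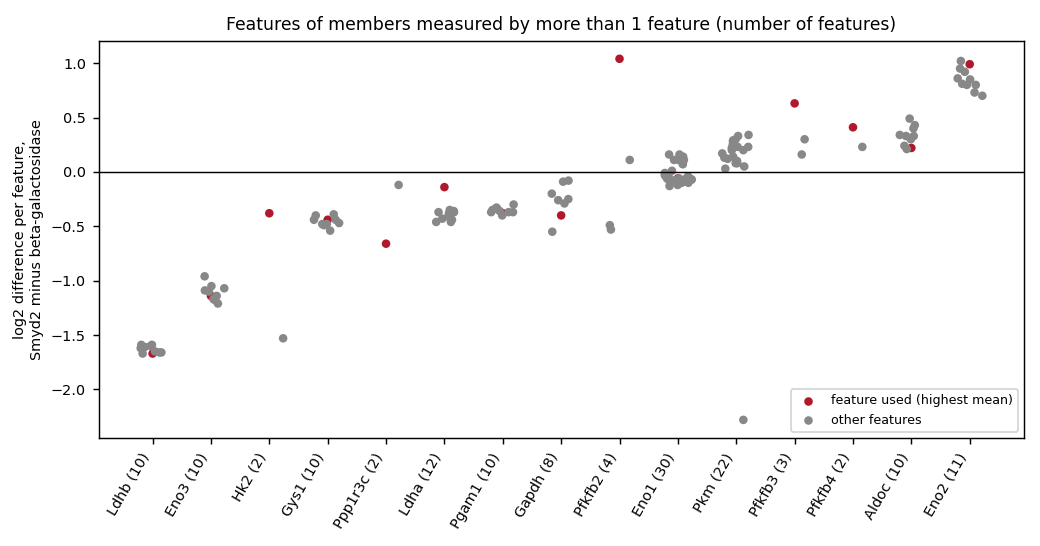
Log2 difference of every feature of the 15 genes that had more than 1, with the feature used in red and the number of features in brackets. The features of Ldhb, Eno3, Gys1, Pgam1 and Eno2 lie close together, those of Pfkfb2 lie on both sides of 0, and 1 feature of Pkm lies at −2.28, apart from the other 21.

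The median difference of the 12 glycogen genes was −0.57, with 11 below 0, and the groups did not overlap for 7 of the lower ones, where over all genes 20.8% were lower without overlap. On the way into glycogen, Pgm1, which moves the phosphate of glucose between glycogen and glycolysis, read 9.75 and 9.56 in the control group against 8.64 and 8.43 in the Smyd2 group, a 2.18-fold lower level (−1.12, SE 0.24, limma adjusted p = 0.236). Ugp2, which makes the activated glucose for synthesis, was the exception, at 12.49 and 12.31 against 12.47 and 12.65. Gyg1, glycogenin, the protein primer of each glycogen particle, read 10.37 and 10.57 against 9.07 and 9.29, a 2.45-fold lower level (−1.29, SE 0.24, adjusted p = 0.216). Gys1, the muscle glycogen synthase, read 12.05 and 12.14 against 11.68 and 11.63, a 1.36-fold lower level (−0.44, SE 0.23), and its 10 features ranged from −0.54 to −0.39. The branching enzyme Gbe1 read 5.74 and 6.40 against 5.05 and 5.04, a 2.04-fold lower level (−1.03, SE 0.31, adjusted p = 0.33). Priming, elongation and branching thus all read lower, and the synthase by the least of the 3.

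For glycogen breakdown, Pygm, the muscle phosphorylase, read 9.09 and 10.12 in the control group against 7.45 and 7.55 in the Smyd2 group, a 4.30-fold lower level (−2.10, SE 0.40, 95% interval −3.12 to −1.09, limma adjusted p = 0.216). The brain form Pygb, which heart also uses, read 9.47 and 9.57 against 9.40 and 9.34, only 1.11-fold lower. The liver form Pygl overlapped between groups, at 5.98 and 5.61 against 4.93 and 5.73. Phka1 and Phkg1, the muscle subunits of phosphorylase kinase, read between 2.57 and 3.60 on all 4 arrays, below the median of the array, so no difference can be read for either.

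Phosphatase subunits that tether protein phosphatase 1 to glycogen switch the synthase on. Ppp1r3a, the striated-muscle form, read 6.35 and 7.14 in the control group against 4.08 and 4.84 in the Smyd2 group, a 4.90-fold lower level (−2.29, SE 0.41, 95% interval −3.35 to −1.23, limma adjusted p = 0.201). This was the largest difference of the 35, and since its mean on the Smyd2 arrays was dim it may be a lower bound. Ppp1r3c, the widely expressed form also called PTG, read 10.28 and 11.30 against 9.96 and 10.30, so the groups overlapped (−0.66, SE 0.41).

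Isoforms of 1 enzyme were then compared within each array, as the log2 value of the muscle form minus that of the other form, so that a shift common to both cancels. Only the change of this value between groups can be read, since 2 probes differ in brightness for the same amount of RNA. Of 15 such pairs, 9 were lower on both Smyd2 arrays than on both control arrays, 1 was higher and 5 overlapped. Among all genes taken singly, 20.8% were lower and 21.9% higher without overlap. The share among other pairs of genes was not computed. The 9 lower pairs hold 7 distinct muscle forms, since Eno3 and Pygm each enter 2 of them. One of these forms is Phka1, which was dim on all arrays, and among genes with a mean of at least 6 the count of lower pairs was 6. With 2 arrays against 2 an exact permutation test, two-sided, cannot give less than p = 0.333, and each of these 9 pairs and the higher one had that value, so no pair reached a threshold of 0.05.

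Pygm minus Pygb read −0.38 and 0.55 in the control group against −1.95 and −1.79 in the Smyd2 group, a change of −1.95 or 3.87-fold. Eno3 minus Eno2 read 2.86 and 2.23 against 0.01 and 0.82, a change of −2.13 or 4.37-fold, since its 2 forms differed in opposite directions. For Eno3 minus Eno1 the change was −1.07. In each of these pairs the gap between the groups was wider than the gap between replicates.

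Pgam2 minus Pgam1 read −5.11 and −4.10 in the control group against −6.08 and −5.86 in the Smyd2 group, a change of −1.36. The SD of the 2 control values was 0.71 here, a spread that comes from Pgam2. Ldhb minus Ldha read −1.49 and −1.22 against −2.96 and −2.83, a change of −1.54. With the next brightest Ldha feature, which is below the top of the scale and was chosen after seeing the data, the change was −1.26. The value for the heart subunit relative to the other was therefore lower with either feature.

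Ppp1r3a minus Ppp1r3c changed by −1.63. Pygm minus Pygl read 3.11 and 4.51 in the control group against 2.52 and 1.82 in the Smyd2 group, a change of −1.64. Pfkm minus Pfkl read 2.46 and 3.45 against 1.27 and 1.76, a change of −1.44. For Pygm minus Pygl and Pfkm minus Pfkl the control replicates lay further apart than the groups, as also for Pgam2 minus Pgam1. For Phka1 minus Phka2 the Smyd2 replicates did so. Phka1 minus Phka2 changed by −0.80, of which −0.20 was the dim Phka1 and the rest the difference of 0.60 in Phka2. The other feature of Phka2 differed by 0.05. The pair that went the other way was Pfkm minus Pfkp, at −4.50 and −4.29 against −4.20 and −4.03, a change of 0.28. Hk2 with Hk1, Aldoa with Aldoc, Pfkfb2 with Pfkfb3, Gys1 with Gys2 and Phkg1 with Phkg2 overlapped between the groups. Gys2 was dim in both groups, as was Phkg1. A lower muscle form relative to the other was therefore not found for every enzyme compared.

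**Figure D4:**
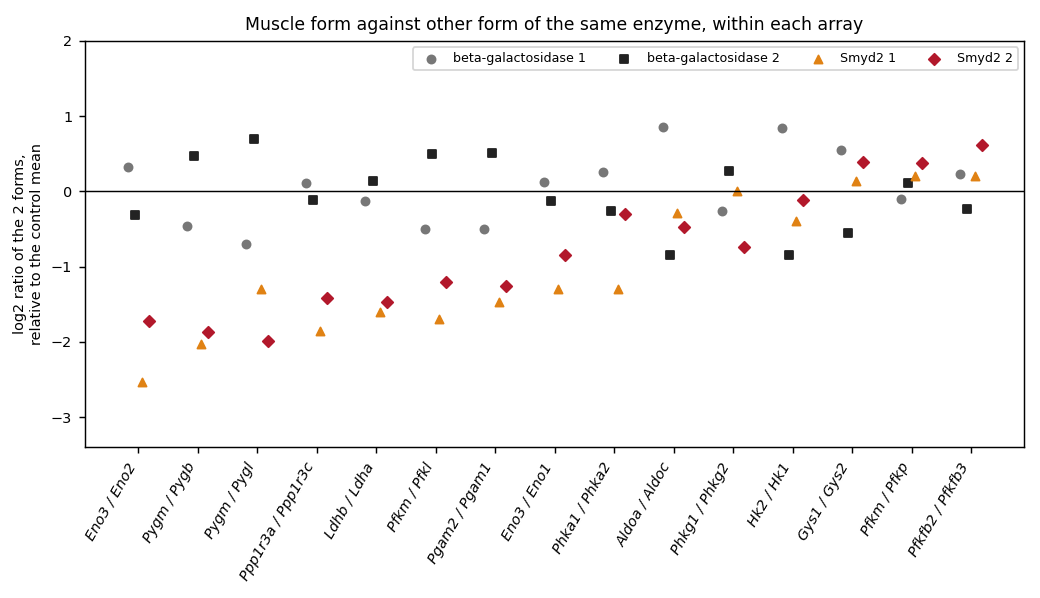
For each of 15 pairs of forms of 1 enzyme, the log2 ratio of the first to the second form on each array, minus the mean of the 2 control arrays. Both Smyd2 points lie below both control points in 9 pairs, from Eno3 / Eno2 to Phka1 / Phka2, and above them for Pfkm / Pfkp.

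The promoters of 3 of these pairs are shown because the 2 genes of each pair carry out the same step, or target the same phosphatase, and their log2 ratio was lower on both Smyd2 arrays. They were chosen with these differences known. Each sequence is the 250 bases before the transcription start in RefSeq's annotation of the rat build GRCr8, written 5′ to 3′ on the strand of the gene. Capitals mark the core that hypoxia-inducible factor (HIF) binds, ACGTG or GCGTG on either strand, with overlapping matches joined.
Pgam2: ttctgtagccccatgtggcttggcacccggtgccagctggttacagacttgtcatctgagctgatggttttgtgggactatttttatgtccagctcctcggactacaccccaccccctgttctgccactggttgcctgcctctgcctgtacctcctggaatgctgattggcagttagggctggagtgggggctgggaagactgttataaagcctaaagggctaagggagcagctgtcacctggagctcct
Pgam1: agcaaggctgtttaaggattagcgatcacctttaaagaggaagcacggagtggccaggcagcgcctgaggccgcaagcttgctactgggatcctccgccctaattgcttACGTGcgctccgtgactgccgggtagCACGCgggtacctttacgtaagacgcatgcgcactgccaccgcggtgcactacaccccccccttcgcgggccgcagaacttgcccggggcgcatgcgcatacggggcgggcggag
Ldhb: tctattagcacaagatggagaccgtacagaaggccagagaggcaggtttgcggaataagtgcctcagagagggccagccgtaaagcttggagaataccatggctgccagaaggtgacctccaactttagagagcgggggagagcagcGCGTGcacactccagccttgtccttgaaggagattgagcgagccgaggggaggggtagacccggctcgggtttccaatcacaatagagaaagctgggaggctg
Ldha: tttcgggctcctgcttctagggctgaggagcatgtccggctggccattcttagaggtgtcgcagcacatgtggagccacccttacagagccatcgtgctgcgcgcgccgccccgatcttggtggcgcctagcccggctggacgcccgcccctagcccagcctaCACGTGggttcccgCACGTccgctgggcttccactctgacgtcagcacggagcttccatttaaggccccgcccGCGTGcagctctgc
Ppp1r3a: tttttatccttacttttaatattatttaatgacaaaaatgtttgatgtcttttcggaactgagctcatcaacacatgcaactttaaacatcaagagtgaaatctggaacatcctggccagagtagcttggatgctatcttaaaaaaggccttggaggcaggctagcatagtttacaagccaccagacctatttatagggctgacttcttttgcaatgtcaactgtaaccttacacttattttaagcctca
Ppp1r3c: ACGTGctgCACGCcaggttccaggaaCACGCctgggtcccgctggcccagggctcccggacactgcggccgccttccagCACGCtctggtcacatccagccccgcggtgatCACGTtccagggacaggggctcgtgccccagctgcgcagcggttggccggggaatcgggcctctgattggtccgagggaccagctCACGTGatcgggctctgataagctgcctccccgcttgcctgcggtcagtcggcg
Pgam2 lies at chr14:84897875-84898124 (minus strand), Pgam1 at chr1:250672902-250673151 (plus strand), Ldhb at chr4:177177409-177177658 (minus), Ldha at chr1:106507842-106508091 (plus), Ppp1r3a at chr4:43946237-43946486 (minus) and Ppp1r3c at chr1:243878528-243878777 (minus).

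The core was found 0 times before Pgam2 and 2 times before Pgam1. It was found once before Ldhb and 3 times before Ldha, a gene known to respond to HIF. Ppp1r3a had 0 matches and Ppp1r3c 6. Fewer cores before the muscle form were also found for Eno3 (0) with Eno2 (1), Pfkm (1) with Pfkl (2) and Pfkfb2 (0) with Pfkfb3 (1). Pygm with Pygb did not share this order, at 2 and 1. Nor did Pygm with Pygl, at 2 each, or Pfkm with Pfkp, at 1 each. E-boxes (CANNTG, the motif of myogenic factors, identical on both strands) stood 5 times before Pgam2 and 2 times each before Ppp1r3a, Ldha and Ppp1r3c, and 0 times before Ldhb and Pgam1. A TATAAA stood before Pgam2. Ppp1r3a held a MEF2 site, and its TATAAA match lies on the opposite strand inside that site, so both counts rest on the same letters. An E-box reading CACGTG contains the HIF core, so these counts overlap.

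Of the 35 members 34 matched the promoter table, 3 of them with several starts, which gave 38 windows. A HIF core stood in 6 of 11 windows of muscle isoforms, 13 of 16 of ubiquitous isoforms and 6 of 11 of the main forms. In all 33469 windows of the table the share was 36.7%. The windows differed in base composition as well, with a median G and C content of 54% for muscle isoforms, 63.6% for ubiquitous ones and 51.2% over all windows, and the core itself holds CG. E-boxes stood in 8 of 11 muscle windows and 11 of 16 ubiquitous ones, against 65.5% of all windows. A MEF2 site stood before Ppp1r3a and at 1 of 3 starts of Aldoa, against 2.96% of all windows. A match says nothing about binding in these cells.

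Targets of HIF-1 outside glycolysis did not share a direction. The 20 measured had a median difference of 0.19, with 13 above 0 and 7 below, and at an unadjusted p under 0.05 by limma 5 were higher, against 5.51% of all genes, and 2 lower, against 6.39%. Ndrg1, a stress-responsive gene, read 5.77 and 5.96 in the control group against 7.27 and 6.91 in the Smyd2 group. Egln3, an oxygen-sensing prolyl hydroxylase, went the opposite way, at 9.48 and 8.94 against 7.68 and 8.04. Bnip3l, a receptor for removing mitochondria, and P4ha2, a collagen prolyl hydroxylase, differed by 0.88 and 0.78. None of the 20 passed adjustment over all genes.

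Of 40 further genes of glycolysis, glycogen and glucose synthesis, 34 were measured, with 14 higher, 20 lower and a median difference of −0.11. At an unadjusted p under 0.05 by limma, 4 of them were lower, against 6.39% of all genes, and 1 higher, against 5.51%. Ppp1r3d, another glycogen-targeting phosphatase subunit, read 10.45 and 10.96 in the control group against 8.97 and 9.25 in the Smyd2 group, a difference of −1.59 (SE 0.29, limma adjusted p = 0.201, and 0.0167 with the intensity trend and robust prior). Ppp1r3b, the subunit best known from liver, differed by −1.13, with a dim mean on the Smyd2 arrays. The remaining targeting subunits Ppp1r3e, Ppp1r3f and Ppp1r3g differed by −0.05, −0.32 and 0.70, but Ppp1r3e and Ppp1r3g were dim in both groups, so no difference can be read for them. The 3 features of Ppp1r3f ranged from −0.32 to 0.31 and did not share a direction. Gckr, the liver regulator of glucokinase, read 6.10 and 6.80 against 4.48 and 4.90, the latter dim on average. G6pc1, the liver enzyme that releases free glucose, was dim in both groups.

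Markers of cell types differed alongside the muscle isoforms. All 14 cardiomyocyte markers were lower, with a median difference of −2.17, and the log2 of their summed intensity was 18.77 and 18.92 in the control group against 17.39 and 17.23 in the Smyd2 group. The 3 brightest, Myl2, Tnnt2 and Myh6, were at the top of the scale on both control arrays, so the difference of the sums is a lower bound. Cardiomyocyte transcripts were bright on the control arrays, where the median marker read 15.18 and 15.34. The fibroblast marker Col1a1 read 15.99 and 15.96 there, so the purity of the culture cannot be read from these levels. Of the 11 muscle isoforms 10 had a difference closer to 0 than the marker median of −2.17, or above 0, and Ppp1r3a was below it. Those 10 include Phka1 and Phkg1, which were dim in both groups. The markers ranged from −2.73 to −0.54, the latter for Tnnt2. Ppp1r3a, Pygm, Pgam2, Ldhb, Eno3 and Pfkm lay inside that range, and the other muscle isoforms above it. In bulk RNA, fewer cardiomyocytes and less of these transcripts per cell cannot be told apart.

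All 15 fibroblast markers were higher in point estimate, with a median of 0.97, a summed log2 intensity of 17.23 and 17.57 against 17.71 and 17.59, and an unadjusted p under 0.05 for 6. Col1a1, the brightest, was at the top of the scale on all 4 arrays, and Col1a2 and Fn1 differed by 0.06 and 0.25. All 14 leukocyte markers were higher too, with a median of 1.36, a sum of 12.26 and 11.15 against 14.03 and 12.63, and 5 at an unadjusted p under 0.05. Over all genes 51.2% were higher, and 5.51% were higher at an unadjusted p under 0.05 by limma. Lyz2, the brightest, differed by 1.78 (SE 0.59), as Tyrobp and Laptm5 did by 1.39 and 1.57, while Csf1r and C1qc were dim in both groups. Endothelial markers had a median of 0.19 (8 of 12 higher), smooth muscle and pericyte markers of 0.58 (8 of 10 higher), and 5 of 6 erythroid markers were dim in both groups. Among the brightest of these, Vwf, Esam and Eng of endothelium differed by 0.09, 0.67 and 0.95, and Tagln, Mcam and Acta2 of smooth muscle by 0.33, −0.02 and 0.34. The part of these cell types in the enzyme differences was not tested.

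**Figure D5:**
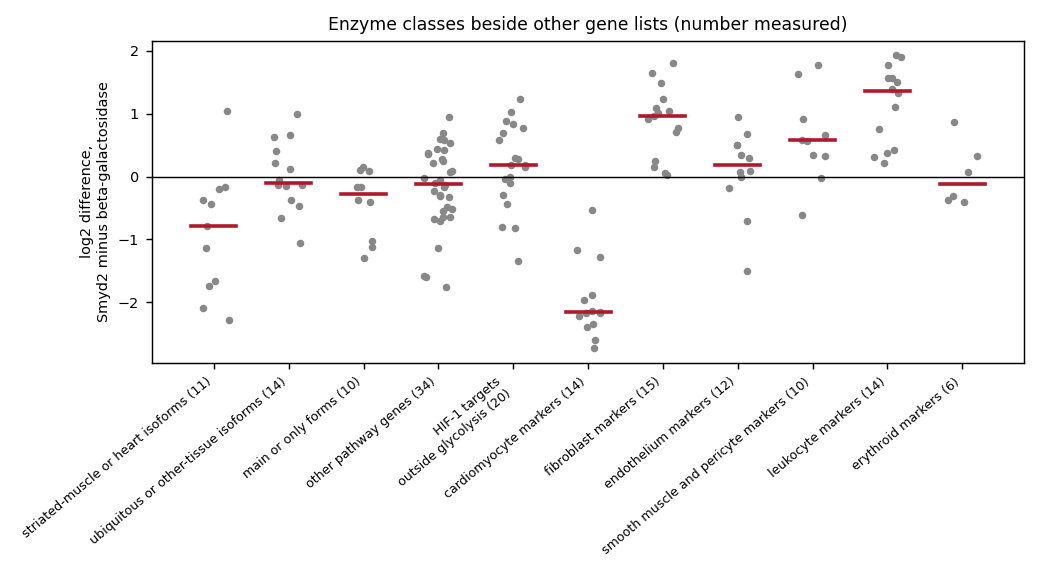
Log2 difference, Smyd2 minus control, of each gene (grey points) in the 3 enzyme classes and in 8 other gene lists, with the median of each list as a red line and the number of measured genes in brackets. The medians are −0.78 for the striated-muscle or heart isoforms, −0.10 for the ubiquitous or other-tissue isoforms and −2.17 for the cardiomyocyte markers.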

How the data were processed

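The deposited table holds log2 intensity values for 62976 features on each of the 4 arrays, from Cy3-labelled RNA amplified with Agilent's low-input kit, per the labels' protocols. Limma was used, per the submitters' processing notes. How background was corrected and arrays were normalized is not given in the sources used here. A log2 scale was read from the values, which run from 2.07 to 16.00, and quartiles of 3.25 and 9.73 were shared by all arrays, as quantile normalization leaves them. Such values show change relative to the bulk of features.

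Features were named through the platform annotation, updated by RefSeq accession (28236 features) or older symbol (457), and 26785 features stayed unnamed. Each gene used its feature with the highest mean, and no probe positions or detection flags were given. The R package limma (version 3.58.1, under R 4.3.3) fitted the differences by lmFit and eBayes without trend or block. Tests were two-sided, and p-values were adjusted by Benjamini-Hochberg over 19868 genes at a threshold of 0.05. The fit was run on simulated data drawn from limma's own fitted model. That checks the computation, and not whether these arrays meet the model. Over all genes same-numbered arrays did not deviate together (correlation 0.032), so replicate numbers were not treated as pairs. Such a correlation cannot exclude pairing, and sets of genes may still deviate together. The summed log2 intensity of the leukocyte markers was higher in replicate 1 of each group (12.26 against 11.15, and 14.03 against 12.63). That of the fibroblast markers was not ordered alike in the groups.

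The members, classes, pairs, lists and motifs were chosen with earlier results of these data known. Every member is described, with the paired forms, the 4 genes with the largest statistic of the pathway and HIF-1 lists, and the 3 markers with the highest mean of each cell type where a result turns on them. Alternatives were another normalization, feature choice, filter, naming, variance model, the replicate block and leaving out each array.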

Additional observations from a re-analysis of the deposited data

How the results depend on the processing

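Where limma's prior followed intensity and was robust, 383 genes and 8 of the 35 members passed limma's adjusted threshold, and with the trend alone 243 genes and 3 members, against 0 and 0 without it. In the other alternatives run, the replicate block included (0 genes, and 2251 at an unadjusted p under 0.05), 0 passed. The count of genes at an unadjusted p under 0.05 was 2363 and ranged from 1149 to 3151 when each array was left out in turn, and 7 to 12 members were then lower at that level. Over the left-out arrays the median of all members ranged from −0.36 to −0.20, that of the ubiquitous or other-tissue isoforms from −0.18 to −0.00 and that of the main or only forms from −0.41 to −0.18. The median of the muscle or heart isoforms was −0.96 with the mean of all features of a gene and −0.96 among genes with a mean of at least 6, where that of the main or only forms was −0.16 and that of all members −0.16; fewer genes enter the latter. The count of 9 lower pairs was 6 among genes with a mean of at least 6, and 9 to 12 without 1 array.

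Of 415 values of single members under the alternatives, 14, in 10 members, changed sign, each when 1 array was left out. The replicate block and the variance models cannot alter a difference, and the repeated normalization and the naming returned the same ones. Many of the 415 values could therefore not change sign, and their number is no measure of stability. The ranges over the left-out arrays were −0.92 to 0.16 for Hk2, −0.65 to 0.25 for Phka1, −0.49 to 0.18 for Phkg1, −0.43 to 0.17 for Hk1, −0.92 to 1.36 for Aldoc, −0.20 to 0.07 for Eno1, −0.37 to 0.61 for Pfkfb1, −0.17 to 0.35 for Gpi, −0.45 to 0.13 for Aldoa and −0.20 to 0.39 for Pkm. The cause was not tested. These members lie near 0 or have control arrays that stand far apart, and with 2 arrays per group their direction cannot be read.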
